A study of Mus musculus with 10 samples.

Results

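Protocadherins are cell-surface adhesion proteins of the cadherin superfamily, and their transcripts were read here in 10 single neurons of the mouse brainstem. The set comprises every gene in the deposited count tables whose Ensembl identifier maps to a symbol starting with Pcdh, which is 70 of the 25006 genes listed. Of these, 58 are clustered protocadherins (14 alpha, 22 beta and 22 gamma genes) and 12 are non-clustered genes. In all, 46 of the 70 genes had a count in at least 1 neuron and 30 were detected. A gene was called detected in a neuron when it had 3 counts or more and reached 10 CPM, where CPM is the count scaled to a library total of 1000000.

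Each neuron was aspirated through a glass pipette from an acute slice of the nucleus of the solitary tract (NTS), which takes in taste and signals from the inner organs. All 10 neurons came from C57BL/6 mice of 3 months carrying LepRb-Cre; Halo-eYFP, in which cells with leptin receptor promoter activity, past or present, are marked by yellow fluorescent protein. Nuclear and cytoplasmic RNA were collected together, and 1 library was made per neuron. The labels sort the neurons into 2 firing classes, here type 1 (neurons 1-1, 1-2, 4-3, 8-2 and 9-1) and type 2 (neurons 6-2, 10-1, 10-3, 9-2 and 9-4), without saying what the firing properties are. No animal or slice is named, so each type counts as 1 sample: neurons are compared by their values alone, and no p-value is given. A library holds what 1 pipette drew, so a gene at 0 may have been lost before sequencing, and less RNA from a cell cannot be told apart from loss on the way to the sequencer.

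The clustered genes lie in 3 tandem arrays. In the alpha and gamma arrays each gene has its own first exon, with its own promoter, which is spliced to short constant exons shared by the whole array, and each beta gene has a single coding exon. A neuron switches on a few of these promoters, largely at random for most isoforms, with CTCF and cohesin bringing a chosen promoter to a distal enhancer, and the resulting mixture of proteins, each of which binds its own kind on a facing membrane, lets a neuron tell its own branches from those of others. The C-type isoforms at the ends of the alpha and gamma arrays (Pcdhac1, Pcdhac2, Pcdhgc3, Pcdhgc4 and Pcdhgc5) are known for a more regular use, and Pcdhgc4 for a role in neuron survival. Non-clustered protocadherins, mostly of the delta family, are instead expressed by region and cell type and act in axon growth, synapse formation and cell sorting.

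Library totals ran from 9796799 counts in neuron 4-3 to 41844825 in neuron 8-2. The 4 neurons under 20000000 counts were 1-1, 1-2, 4-3 and 6-2. A gene at 0 counts could still have stood at 3 counts by chance, which is 0.0717 CPM for neuron 8-2 and 0.306 CPM for neuron 4-3, and all intervals given here cover counting error only. Between 5315 and 7367 genes were detected per neuron, and 8 to 10 of 10 neuronal markers were detected in each. Markers of microglia, the resident immune cells of the brain, were found in both types, with the higher median in type 2: their summed level was 0.0668, 896, 0.306, 59.6 and 78.4 CPM in the type 1 neurons, in the order named above, and 1809, 4.23, 47.7, 523.5 and 1570 CPM in the type 2 neurons. In neurons 6-2 and 9-4, 12 of the 14 microglial markers were detected, against 0 in neurons 1-1, 4-3 and 10-1. At most 3 of 8 astrocyte markers, 2 of 8 oligodendrocyte-lineage markers and 1 of 8 vascular markers were detected in any neuron. Slc1a3, Sox10, Cdh5, Pdgfrb and Rgs5 were at 0 in every neuron, and the part of other cells in the values was not tested.

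The shape of the arrays limits what a gene count can say. In the GENCODE M21 annotation (GRCm38), the alpha array spans 18:36930184-37187661, the beta array 18:37264938-37524479 and the gamma array 18:37661793-37841873. All 14 alpha genes share exon bases with another alpha gene, for 38% to 91.4% of their exon length (median 53.5%), and all 22 gamma genes do so for 27.8% to 66.8% (median 44.7%). Only 2 of the 22 beta genes share any, Pcdhb21 at 9.7% and Pcdhb22 at 6.9%. A read from the constant exons fits every gene of its array, and how the counting treated such reads is not given in the sources used here, so alpha and gamma values are uncertain in a way that most beta values are not. The part of the shared exons in any isoform's count was not tested. A further limit is that a pair of Ensembl identifiers carries the symbol Pcdha11. ENSMUSG00000007440 (start 37005203) had counts and ENSMUSG00000102206 (start 37010712) had none. RefSeq calls the gene nearest the first of these starts Pcdha10, so the gene with counts is given here by its identifier.

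Each neuron held a few clustered isoforms at clear levels and almost nothing of the rest. The number detected was 2, 4, 2, 4 and 5 in the type 1 neurons and 6, 4, 1, 4 and 2 in the type 2 neurons, a median of 4 in both types and a mean of 3.4 ± 1.58 (SD, n = 10 neurons). Of the 580 gene-by-neuron values of clustered isoforms, 487 were at 0 counts (84.0%), 44 were above 0 but under 1 CPM (7.59%), 15 lay between 1 and 10 CPM (2.59%) and 34 reached 10 CPM (5.86%). Most values were thus at 0, and among the rest those under 1 CPM were about as common as those at 10 CPM or more. Over all genes with a count in any neuron, 34.6% of values were at 0, 15.8% were above 0 but under 1 CPM and 43.0% reached 10 CPM. For the non-clustered protocadherins these shares were 27.5%, 18.3% and 40%.

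**Figure D1:**
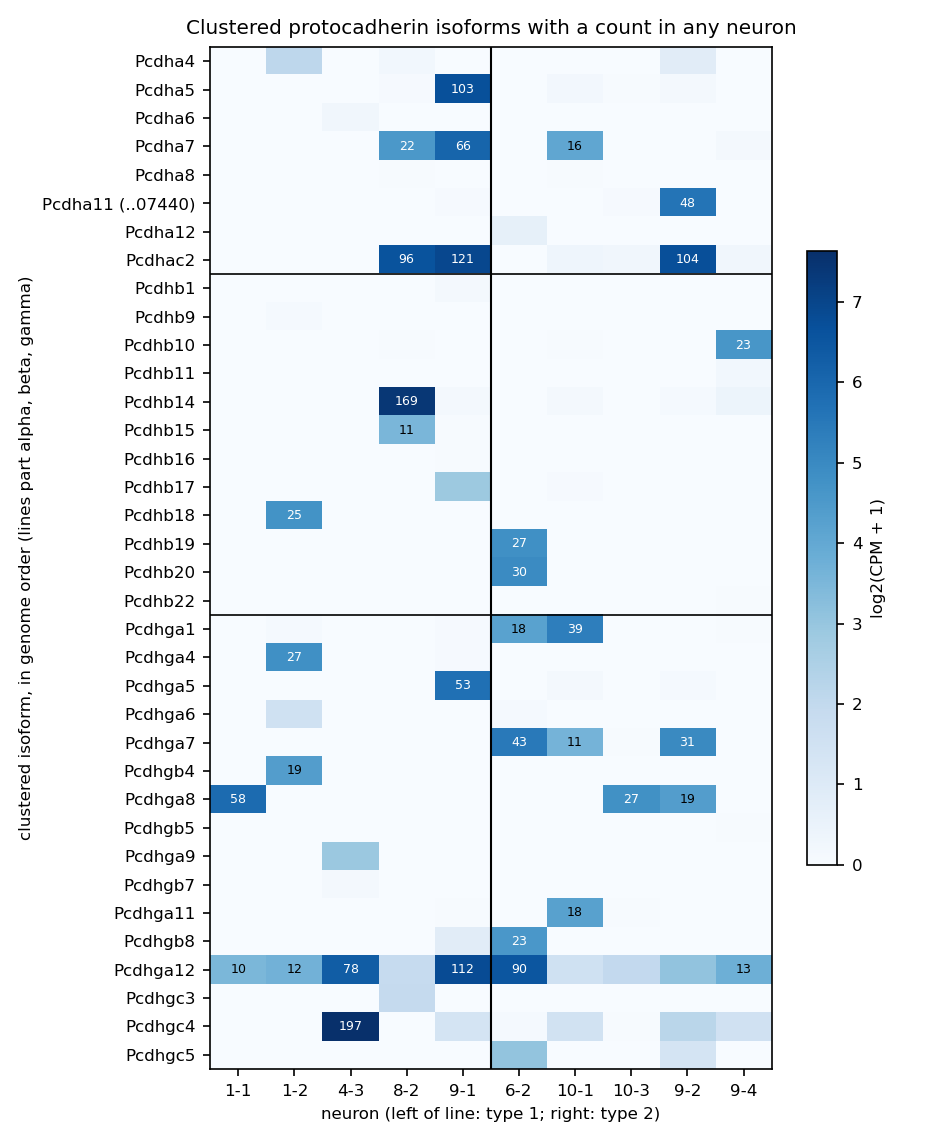
Level of each clustered isoform with a count in any neuron (rows, in genome order; lines part alpha, beta and gamma) in each of the 10 neurons (columns; the line parts type 1 on the left from type 2 on the right). Colour gives log2(CPM + 1) and the printed number the CPM of a detected isoform; most columns hold 1 to 6 filled cells, and Pcdhga12 is the row filled most often, in 6 neurons.

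The type 1 neurons differed from one another in which isoforms they held. Neuron 1-1 had Pcdhga8 at 58.0 CPM and Pcdhga12 at 10.3 CPM, and no other clustered isoform with a count. Neuron 1-2 had Pcdhga4 at 27.1, Pcdhb18 at 25.2, Pcdhgb4 at 19.5 and Pcdhga12 at 11.8 CPM. No isoform dominated in this neuron: Pcdhga4 led with 30.4% (exact binomial 95% interval 27.9% to 33.1%). Neuron 4-3 had the C-type isoform Pcdhgc4 at 197 CPM, the highest clustered value of the data, beside Pcdhga12 at 78.3 CPM. Neuron 8-2 had Pcdhb14 at 169, Pcdhac2 at 96.0, Pcdha7 at 22.1 and Pcdhb15 at 10.5 CPM. It was the 1 neuron of the 10 with no detected gamma isoform, its gamma counts summing to 5.52 CPM. Neuron 9-1 had Pcdhac2 at 121, Pcdhga12 at 111.5, Pcdha5 at 103, Pcdha7 at 65.9 and Pcdhga5 at 52.9 CPM, the largest clustered sum of any neuron at 464 CPM.

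The type 2 neurons differed in the same manner. Neuron 6-2 held 6 isoforms, namely Pcdhga12 at 90.0, Pcdhga7 at 43.5, Pcdhb20 at 30.3, Pcdhb19 at 26.9, Pcdhgb8 at 23.0 and Pcdhga1 at 17.8 CPM. Neuron 10-1 held Pcdhga1 at 38.7, Pcdhga11 at 17.9, Pcdha7 at 15.9 and Pcdhga7 at 11.4 CPM. Both thus had Pcdhga1 with Pcdhga7, in a different order. Neuron 10-3 held Pcdhga8 alone, at 26.8 CPM. Neuron 9-2 held Pcdhac2 at 104, Pcdha11 ENSMUSG00000007440 at 47.8, Pcdhga7 at 30.9 and Pcdhga8 at 19.5 CPM. Neuron 9-4 held Pcdhb10 at 23.2 and Pcdhga12 at 12.8 CPM, and it also had the lowest summed level of the non-clustered genes.

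How far 1 isoform dominated varied between neurons. The most abundant isoform took 85.0% (82.6% to 87.1%) of the clustered counts in neuron 1-1 and 89% (87.0% to 90.8%) in neuron 10-3, in both cases Pcdhga8. In neuron 9-1 the leading isoform, Pcdhac2, took 26.2% (25.5% to 26.9%). The other neurons lay between these, with Pcdhgc4 at 69.8% in 4-3, Pcdhb10 at 60% in 9-4, Pcdhb14 at 55.7% in 8-2, Pcdhac2 at 48.1% in 9-2, Pcdhga1 at 43.8% in 10-1 and Pcdhga12 at 37.6% in 6-2. Isoforms differ in length, so the order was also taken per kilobase of exon bases that the gene shares with no other gene. On that scale the leading isoform stayed first in 8 neurons. In neuron 8-2, Pcdhac2 (31.7 CPM per kb) came before Pcdhb14 (19.5 CPM per kb), and in neuron 9-1, Pcdha5 (43.9 CPM per kb) before Pcdhac2 (40.1 CPM per kb). The scale holds only if reads on shared exons were left out of the counts, which is not known. Both changes of order rest on it: Pcdhac2 has 3028 unshared bases of 5888 and Pcdha5 2346 of 5206, while all 8695 of Pcdhb14 are unshared.

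Of the 58 clustered genes, 20 were detected in at least 1 neuron (4 alpha, 6 beta and 10 gamma), 16 had counts without being detected, and 22 were at 0 throughout. Among the 16, the highest values were 7.30 CPM for Pcdhgc5, 6.53 CPM for Pcdhga9 and 6.34 CPM for Pcdhb17, just under the limit of 10 CPM, and Pcdhb15 at 10.5 CPM was the lowest just above it. Exactly 1 neuron held the isoform for 14 of the 20 (70%), 2 neurons for 1, 3 neurons for 4 and 6 neurons for 1. Over all genes detected in any neuron, 15.5% were detected in exactly 1, and the share was 22.0% among the 8028 genes whose highest level lay in the range of these 20 isoforms (10.5 to 197 CPM). The members' share stands above both backgrounds. Of the 10 detected non-clustered genes, 2 were found in exactly 1 neuron. All 6 detected beta isoforms (Pcdhb10, Pcdhb14, Pcdhb15, Pcdhb18, Pcdhb19 and Pcdhb20), which have nearly no shared exon bases, were single-neuron isoforms.

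**Figure D2:**
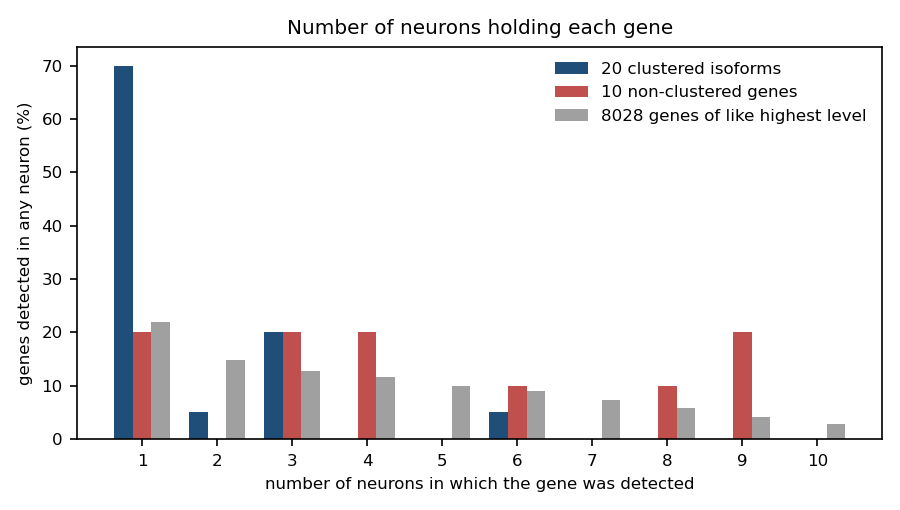
Share of genes (vertical axis, percent of the genes detected in any neuron) by the number of neurons in which the gene was detected (horizontal axis), for the 20 clustered isoforms, the 10 non-clustered genes and the 8028 genes of like highest level. The clustered isoforms pile up at 1 neuron (70% against 22.0% for the genes of like level), and the non-clustered genes spread out to 9 neurons.

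The 14 single-neuron isoforms, which the detection rule places at 10 CPM or more, had a median level of 27.0 CPM in the neuron that held them (10.5 to 197 CPM). In the next-highest neuron, 13 of the 14 were under 1 CPM, and 4 (Pcdhb18, Pcdhb19, Pcdhb20 and Pcdhgb4) were at 0 in all other neurons. The exception was Pcdhgc4, at 3.54 CPM in neuron 9-2. Pcdhb14 was at 0, 0, 0, 169 and 0.127 CPM in type 1 and at 0, 0.0961, 0, 0.0701 and 0.318 CPM in type 2. Pcdhga4 was at 27.1 CPM in neuron 1-2, 0.0637 CPM in 9-1 and 0 in the other 8, and Pcdhb10 was at 23.2 CPM in 9-4, 0.0239 CPM in 8-2, 0.024 CPM in 10-1 and 0 in the other 7. These leading isoforms of their neurons were near 0 in every other neuron. As to firing type, 8 of the 20 isoforms were detected in type 1 neurons alone, 8 in type 2 neurons alone and 4 in both. An isoform held by 1 neuron falls into 1 type whatever the type. No share over all genes stands beside these counts, so nothing about the types is read from them.

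Among isoforms found in several neurons, Pcdhga12 stood apart from the others. This gamma-A isoform had counts in all 10 neurons, at 10.3, 11.8, 78.3, 2.75 and 111.5 CPM in type 1 and at 90.0, 1.92, 2.96, 7.51 and 12.8 CPM in type 2. It was high in 4-3, 9-1 and 6-2, near the detection limit in several others, and the ranges of the types overlapped. Whether counts from the constant gamma exons were given to Pcdhga12 was not tested. Pcdhga7 was at 43.5, 11.4, 0.0276, 30.9 and 0 CPM in type 2 and had 0 counts in all type 1 neurons, so it was present in 3 type 2 neurons and in no type 1 library. Pcdhga1 was at 17.8, 38.7, 0, 0 and 0.0318 CPM in type 2 and at most 0.0722 CPM in type 1. Pcdhga8, in contrast, crossed the types: it was at 58.0 CPM in neuron 1-1, 26.8 CPM in 10-3 and 19.5 CPM in 9-2, and at 0 in the other 7. Pcdha7 was at 22.1 CPM in 8-2, 65.9 CPM in 9-1 and 15.9 CPM in 10-1, and at most 0.0954 CPM elsewhere.

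Pairs of neurons shared at most 2 detected isoforms. Of the 45 pairs of neurons, 19 shared no detected isoform, 24 shared 1 and 2 shared 2. Neurons 8-2 and 9-1, both type 1, shared Pcdha7 and Pcdhac2, which is 50% of the isoforms of the first and 40% of those of the second. Neurons 6-2 and 10-1, both type 2, shared Pcdhga1 and Pcdhga7, 33.3% and 50%. No pair had the same set. Within a type the 20 pairs shared 0, 1 or 2 isoforms in 8, 10 and 2 cases, and between types the 25 pairs did so in 11, 14 and 0 cases, which are close shares. When Pcdhga12 is left out, a choice made after seeing the data, 34 pairs share none, 9 share 1 and 2 share 2. The same pairs shared between 1 and 6 detected non-clustered genes (median 3).

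The 5 C-type isoforms were not held by all neurons. Pcdhac2, the last variable exon of the alpha array, was at 0, 0, 0, 96.0 and 121 CPM in type 1 and at 0, 0.264, 0.193, 104 and 0.191 CPM in type 2. It was thus at 96.0 to 121 CPM in 3 neurons, 2 of type 1 and 1 of type 2, and at most 0.264 CPM in the other 7. Pcdhgc4 was at 0, 0, 197, 0 and 1.50 CPM in type 1 and at 0.082, 1.78, 0.0276, 3.54 and 1.81 CPM in type 2. A high level was thus seen in 1 type 1 neuron. The values of 6-2 and 10-3 are 1 count each, which cannot be told from 0. Pcdhgc5 had counts in neurons 6-2 (7.30 CPM) and 9-2 (1.58 CPM) alone. Pcdhgc3 had counts in neuron 8-2 alone (2.77 CPM). Pcdhac1 was at 0 in all 10.

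The 3 arrays were used unequally. Gamma counts were present in every neuron, at 68.3, 60.3, 282, 5.52 and 167 CPM in type 1 and 182, 71.8, 29.9, 63.1 and 14.7 CPM in type 2. Alpha isoforms were detected in 4 neurons, 8-2, 9-1, 10-1 and 9-2, with alpha sums of 118, 290.3, 16.3 and 152 CPM, and at most 3.32 CPM in the other 6. All 4 are libraries over 20000000 counts. With every library thinned to the smallest total, these neurons had 2, 3, 1 and 2 alpha isoforms detected, and the other 6 had 0. Detection rests on CPM, which thinning keeps on average, so this outcome was largely set beforehand and nothing about depth is read from it. Why alpha isoforms were detected in these neurons alone was not tested. Beta isoforms were detected in 4 neurons, 1-2, 8-2, 6-2 and 9-4, with beta sums of 25.3, 179.7, 57.2 and 23.7 CPM. Neuron 1-2 and neurons 6-2 and 9-4 are also the 3 with the highest microglial marker sums, and neuron 8-2 has the highest beta sum with a microglial sum of 59.6 CPM. No neuron had detected isoforms from all 3 arrays.

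**Figure D3:**
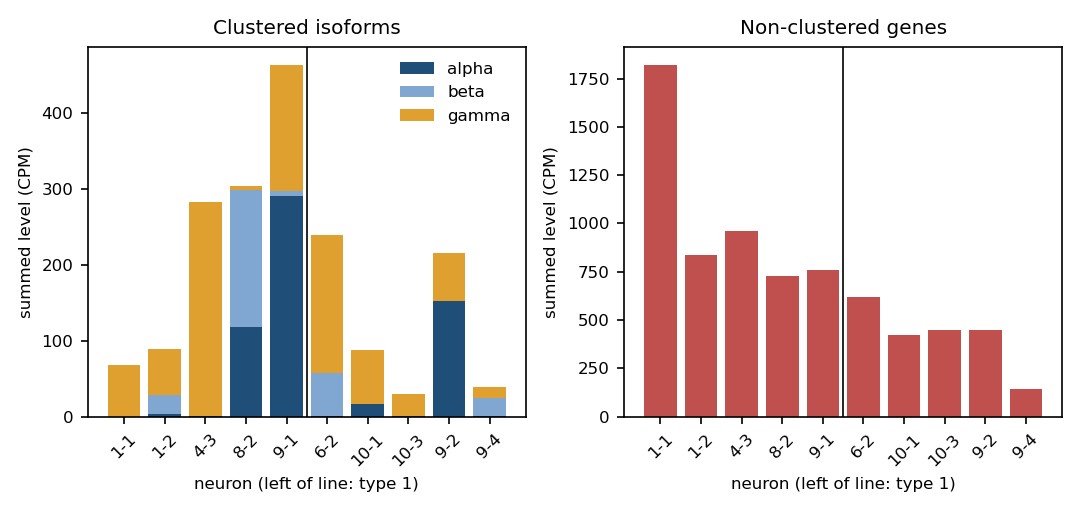
Summed level (CPM, vertical axes from 0) in each neuron, type 1 left of the line and type 2 right, of the clustered isoforms split by array (left panel) and of the 12 non-clustered genes (right panel). Clustered sums of the types overlap (68.3 to 464 against 30.1 to 239.5 CPM), whereas the 5 type 1 neurons are at 726.4 CPM or more for the non-clustered genes and the 5 type 2 neurons at 617.4 CPM or less.

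The non-clustered genes made up most of the protocadherin CPM, and clustered isoforms gave between 3.61% (1-1) and 37.9% (9-1) of it. These shares take no account of gene length or of how reads on shared exons were counted. The non-clustered sum was 1823, 836.5, 959.7, 726.4 and 760.7 CPM in type 1 (mean 1021 ± 457, SD, n = 5) and 617.4, 424.5, 446, 449.4 and 144.2 CPM in type 2 (416 ± 171). Every type 1 neuron lay above every type 2 neuron. The ranges also stayed apart with TMM or DESeq2 scaling, after thinning, and without Pcdh17. They overlapped when Pcdh9 was left out (228.7 to 1038 against 129.6 to 498.3 CPM) or Pcdh15 was (462.6 to 1379 against 137 to 589.9 CPM). These checks were chosen after seeing the data. Pcdh9, Pcdh15 and Pcdh17 together gave 70.4% to 98.4% of the non-clustered sum in type 1 and 17.4% to 80.0% in type 2.

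Pcdh9, a delta-1 protocadherin and the most abundant member per length (mean 41.5 CPM per kb of exon), lies at 14:93013410-93890679 on the minus strand. It was at 785, 46.1, 601, 355 and 532 CPM in type 1 and at 119, 0.649, 246, 115 and 14.6 CPM in type 2. All type 1 neurons but 1-2 were above all type 2 neurons, and 1-2 kept the ranges from parting. The means were 464 ± 280 and 99.1 ± 98.8 CPM, and the difference of mean log2(CPM + 1), type 2 minus type 1, was -3.11. Without neuron 10-1 this difference was -1.97. It was -3.89 among libraries over 20000000 counts and -1.23 among those under.

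Pcdh17, a delta-2 protocadherin that acts in axon extension and at synapses, varied least within type 1 of the 10 detected non-clustered genes (SD 0.42 on the log2 scale). It was at 252, 169, 127, 137 and 216 CPM in type 1 and at 154, 113, 111, 19.9 and 3.24 CPM in type 2. Neuron 6-2 lay within the type 1 range and 10-1 and 10-3 just below it, and 9-2 and 9-4 were far lower. The microglial sums were 523.5 and 1570 CPM in 9-2 and 9-4. They were 1809 CPM in 6-2 and 896 CPM in 1-2, where Pcdh17 was at 154 and 169 CPM. A link between the 2 was not tested. The means were 180.2 ± 52.9 and 80.2 ± 65.2 CPM and the log2 difference -1.98. Without neuron 9-4 the difference was -1.13, without 6-2, 9-2 and 9-4 it was -0.63, and among the libraries under 20000000 counts it was -0.19.

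Pcdh15, a protocadherin known as a part of the tip link in hair cells of the inner ear, had a wide span. It was at 444, 374, 198, 60.5 and 0.574 CPM in type 1 and at 27.5, 29.5, 0.0276, 6.31 and 7.28 CPM in type 2. It was thus above every type 2 value in 4 type 1 neurons and nearly absent in neuron 9-1. The means were 215 ± 192 and 14.1 ± 13.4 CPM and the log2 difference was -3.17, with -3.5 among the libraries under 20000000 counts and -0.58 among those over. Within the 3 neurons whose names start with 9, the difference had the other sign, 2.31.

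The promoters of Pcdh17 and Pcdh15 are shown because these members differ in how regularly they were held: Pcdh17 was detected in 9 neurons and Pcdh15 in 6. Each run spans 250 bases before to 50 bases after a RefSeq transcript start on GRCm38.p6, with CG dinucleotides, the sites of DNA methylation, in capitals. The first is chr14:84443313-84443612 (plus strand) and the second chr10:73821617-73821916 (plus strand), which lies inside the longer Pcdh15 gene of the GENCODE annotation.
Pcdh17: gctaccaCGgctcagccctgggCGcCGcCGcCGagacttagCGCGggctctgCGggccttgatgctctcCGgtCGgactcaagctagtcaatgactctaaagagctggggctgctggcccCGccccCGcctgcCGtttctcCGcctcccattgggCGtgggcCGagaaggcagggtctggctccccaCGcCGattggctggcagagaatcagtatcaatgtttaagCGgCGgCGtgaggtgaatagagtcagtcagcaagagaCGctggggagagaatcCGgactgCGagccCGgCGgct
Pcdh15: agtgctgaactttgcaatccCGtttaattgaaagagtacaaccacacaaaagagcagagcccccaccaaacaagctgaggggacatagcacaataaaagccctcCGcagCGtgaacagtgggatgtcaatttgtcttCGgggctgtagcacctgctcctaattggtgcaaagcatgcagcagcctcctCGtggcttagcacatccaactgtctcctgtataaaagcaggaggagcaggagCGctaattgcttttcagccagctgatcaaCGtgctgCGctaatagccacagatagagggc
The Pcdh17 window holds 26 CG sites, and 16.9% of the 32851 RefSeq promoter windows of this length have as many or more. The Pcdh15 window holds 8, against a median of 7, and 48.7% have as many or more. The letters CG read the same on both strands, so each site was counted once. For the 9 non-clustered genes with a window, the median was 18 sites, from 4 in Pcdh20, which had 0 counts in all neurons, to 26 in Pcdh17. The other genes varied: Pcdh10 (24 sites) was detected in 3 neurons, Pcdh18 (23) in 1 and Pcdh9 (19 and 18 in its windows) in 9. Pcdh19 (18) was detected in 4, Pcdh8 (14) in 3 and Pcdh7 (11) in 8. A link between site number and detection was not tested.

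A group of 3 non-clustered genes had the higher mean level in type 2. Pcdh7, a delta-1 protocadherin, was at 173, 98.4, 31.5, 0.0717 and 3.12 CPM in type 1 and at 62.9, 73.4, 71.1, 164 and 29.5 CPM in type 2. It was detected in all type 2 neurons and in 3 type 1 neurons, and the ranges overlapped. The log2 difference was 1.89, but 0.85 without neuron 8-2, and -0.37 among the libraries under 20000000 counts. Pcdh7 shares 2235 exon bases with an opposite-strand gene, 4932441J04Rik, and the strand setting of the counting is not given in the sources used here.

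Pcdh11x, an X-linked delta-1 protocadherin, was either high or nearly absent. It was at 0.134, 77.6, 1.33, 0.502 and 0.542 CPM in type 1 and at 144, 198, 0.442, 133 and 0.795 CPM in type 2. It was thus high in 4 neurons (1-2, 6-2, 10-1 and 9-2) and at most 1.33 CPM in the other 6, with a log2 difference of 2.87. Pcdh19, an X-linked delta-2 protocadherin whose mutation in humans is linked to epilepsy in females, was at 0, 38.7, 0, 0.0956 and 2.36 CPM in type 1 and at 69.2, 0.024, 15.2, 4.73 and 60.8 CPM in type 2. Its 3 highest values are in neurons 6-2, 9-4 and 1-2, the 3 with the highest microglial marker sums (1809, 1570 and 896 CPM), and the part of other cells in this was not tested. The log2 difference of Pcdh19 was 2.29, and 0.59 without neurons 6-2, 9-2 and 9-4.

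The remaining non-clustered genes were held by few neurons. Pcdh10, a delta-2 protocadherin of axon guidance, was at 117, 4.84, 0.102, 42.9 and 1.47 CPM in type 1 and at 36.2, 0.697, 2.15, 5.09 and 4.36 CPM in type 2 (log2 difference -0.73). Its difference turned to 0.17 without neuron 1-1 and was -0.18 without 8-2, -0.29 without 10-1, -1.51 without 4-3, -1.22 without 9-1 and -1.4 without 6-2. Pcdh8, known as an activity-induced protein of synapses, was at 52.2, 0, 0, 110.3 and 0.191 CPM in type 1 and at 1.80, 0, 0, 0.105 and 23.7 CPM in type 2 (log2 difference -1.31). Both were high in neurons 1-1 and 8-2 and in 1 type 2 neuron each. Leaving out neurons in turn moved the difference of Pcdh8 between -2.15 (without 9-4) and -0.24 (without 8-2), and it was under 1 in size also without 1-1 (-0.51), 10-1 (-0.99) or 10-3 (-0.99). Pcdh1 was detected in neuron 1-2 alone (28.5 CPM), and Pcdh18 in neuron 8-2 alone (17.5 CPM), with 9.23 CPM in neuron 10-1. Pcdh12, a protocadherin of endothelial cells, and Pcdh20 were at 0 in all neurons.

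**Figure D4:**
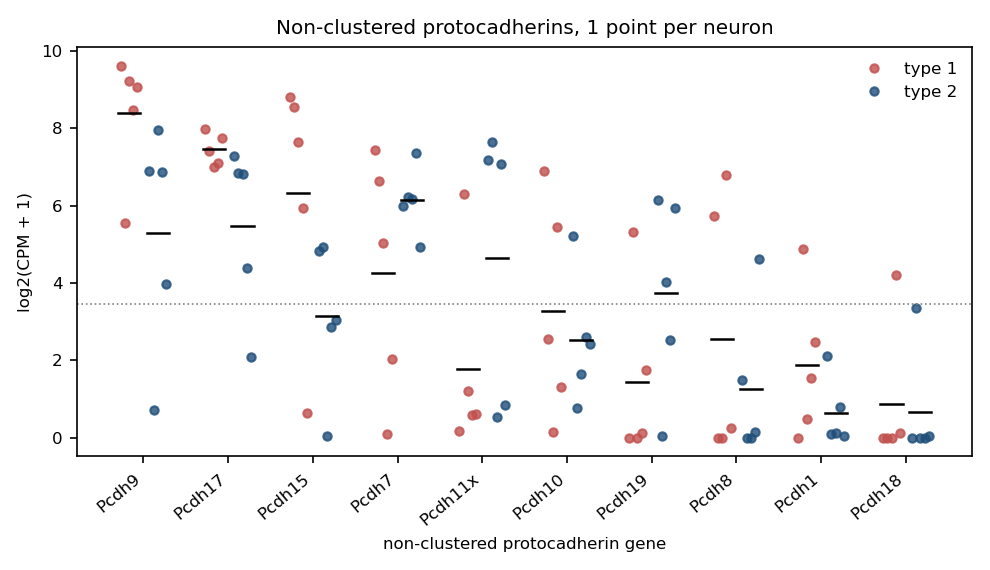
Level, as log2(CPM + 1), of the 10 non-clustered genes with a detected value, 1 point per neuron (type 1 red, type 2 blue); bars are the mean of each type and the dotted line marks the detection limit of 10 CPM. The type 1 points of Pcdh9 and Pcdh17 lie high with 1 low Pcdh9 point (46.1 CPM), and Pcdh11x points fall into a high and a low group in both types.

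Between the types, 30 members had a mean of at least 1 CPM over the 10 neurons. These are the 30 detected members, and an isoform held by 1 neuron passes this limit only through that neuron, so its difference is fixed by it and nothing is read from the clustered counts. The log2 difference was 1 or more, higher in type 2, for 6 of the 30, where 31.1% of all 11923 genes at this level were. It was -1 or less, higher in type 1, for 11 of the 30, where 21.6% of all genes were. The median difference of the 30 was -0.73, or -0.72 with a type at 0 set at its 3-count limit, and that of all genes 0.24. For no member did all 5 neurons of one type lie above all 5 of the other, a pattern shown by 1.44% of all genes with type 2 above and by 0.587% with type 1 above. Among the 10 non-clustered genes, 3 were at 1 or more (Pcdh7, Pcdh11x and Pcdh19), 5 at -1 or less (Pcdh9, Pcdh15, Pcdh17, Pcdh8 and Pcdh1) and 2 between (Pcdh10 and Pcdh18), with a median of -0.99. Over all members at this level, the median was -0.2 without neuron 8-2 and -0.33 without 9-1. Their count higher in type 2 was 10 without 10-1, 10-3 or 9-4. Without 6-2, 9-2 and 9-4, the type 2 neurons with most microglial markers, the members' counts were 6 and 11. The 30 members' median was -1.42 among libraries over 20000000 counts, where all genes had 0.07, and 0.07 among those under, where all genes had 0.69.

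Other genes of the same biology were read from lists. Of 25 genes for promoter choice in the arrays (CTCF, cohesin and its regulators, and enzymes and readers of DNA and histone methylation), 23 had a mean of at least 1 CPM, of which 3 were at 1 or more and 9 at -1 or less (median -0.91). Their summed level was 1241 to 2174 CPM in type 1 and 475 to 1201 CPM in type 2, ranges that do not overlap. They overlap with TMM scaling (1299 to 2446 against 563.6 to 1414 CPM) and with DESeq2 scaling (1264 to 2087 against 518.2 to 1329 CPM). Smchd1, which silences clustered protocadherin promoters, was at 186, 63.4, 65.3, 104.5 and 0.255 CPM in type 1 and at 0.492, 25.7, 0.0829, 0.0701 and 65.2 CPM in type 2 (log2 difference -3.02). It was detected in 4 type 1 and 2 type 2 neurons. Mau2, a subunit of the cohesin loader, had means of 133 ± 79.7 and 55.9 ± 74.2 CPM (log2 difference -2.98).

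The WAVE complex, an actin regulator that several protocadherins recruit, had 9 of 10 genes at this level, 4 at 1 or more and 1 at -1 or less (median -0.35). Over all genes at this level these shares were 31.1% and 21.6%. Its subunit Brk1 was at 214, 141.5, 213, 213 and 88.4 CPM in type 1 and at 696, 529.6, 400, 506 and 658.5 CPM in type 2, so that every type 2 neuron lay above every type 1 neuron, as for 1.44% of all genes (log2 difference 1.73). Wasf1 had means of 50.2 ± 38.0 and 92.7 ± 42.7 CPM (1.74). Of the binding partners of protocadherins, 11 of 12 were at this level, 2 at 1 or more and 3 at -1 or less (median 0.09). Axin1, a scaffold of the Wnt pathway that binds a gamma isoform, was detected in 3 type 1 and 0 type 2 neurons (-3.05), and Nlgn1, a synaptic adhesion protein, had means of 62.9 ± 27.5 and 23.7 ± 20.6 CPM (-2.13).

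All 7 genes of proteolytic cleavage, through which protocadherin tails are released, were at this level, 1 at 1 or more and 2 at -1 or less (median 0.05). Over all genes at this level these shares were 31.1% and 21.6%. The sheddase Adam10 was detected in 3 type 1 and 0 type 2 neurons (-2.94), and the gamma-secretase subunit Ncstn had means of 78.8 ± 73.3 and 83.3 ± 39.4 CPM (1.87). Of 42 other cadherin-superfamily genes, 27 were at this level, 7 at 1 or more and 11 at -1 or less (median -0.48). Cdh22 was at 194, 0, 160.1, 102 and 0.159 CPM in type 1 and at most 0.223 CPM in type 2 (-4.3), and Cdh13 at 130, 0.0722, 147.5, 386 and 0.191 CPM in type 1 and at most 20.8 CPM in type 2 (-3.7). Neurons 1-1, 4-3 and 8-2 were thus the type 1 neurons with both cadherins. These neurons had different leading clustered isoforms, Pcdhga8, Pcdhgc4 and Pcdhb14, while 1-1 and 4-3 both held Pcdhga12.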

How the data were processed

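Each library is 1 neuron. Per the submitters' processing notes, cutadapt 1.13, STAR, HTSeq 0.6.1p1 and DESeq2 were used with mm10; these sources do not state the annotation release, the strand option or what was done with reads on shared exons. Per gene, the deposited tables hold raw counts of reads, with no molecular identifiers. CPM is the count over the sum of all gene counts of that library, times 1000000, and levels were averaged as log2(CPM + 1). Symbols were matched by identifier for 24942 of 25006 genes, and exon overlaps were measured on GENCODE M21. No test was run, since each type is 1 sample without named animals, and no model was fitted. Differences are described by size, with 1 log2 unit as the limit, where the mean over all neurons reached 1 CPM.

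Values in every neuron are given for non-clustered genes and clustered isoforms detected in at least 2 neurons. The same holds for C-type isoforms and for the leading isoform of each neuron. For Pcdhga1 and Pcdha7 some low values are given as an upper limit. From each other list the 2 genes with the largest difference are named, and Pcdh1, Pcdh18, Pcdhga9 and Pcdhb17 were named after their values were seen. The members and lists were chosen with earlier results of these data known. Shares have exact (Clopper-Pearson) 95% intervals. Alternatives were 1 and 50 CPM for detection, pseudocounts of 0.1 and 10, TMM (edgeR 4.0.16) and DESeq2 1.42.0 scaling of the same counts, thinning, subsets of libraries and leaving out each neuron. The scripts were checked on simulated data.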

Additional observations from a re-analysis of the deposited data

Results flagged for a closer look

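In several members 1 neuron stood far from the other 4 of its type. The gap to its nearest neighbour was more than 0.71 of the type's whole range (Dixon's 95% limit for 5 values, which chance passes in about 1 in 20 groups), taken as log2(CPM + 1) for levels and summed levels. The detected members and the C-type isoforms were examined in both types, leaving out highest values of 3 counts or fewer. A gene held by 1 neuron of a type passes by construction, so most of these values restate which neuron held an isoform.

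In type 1, neuron 1-1 stood apart for Pcdhga8 (58.02 CPM, others 0). Neuron 1-2 stood apart for Pcdhga4 (27.06 CPM, others at most 0.0637), Pcdhb18 (25.18 CPM, others 0) and Pcdhgb4 (19.48 CPM, others 0), and neuron 4-3 for Pcdhgc4 (197.1 CPM, others 0 to 1.50). Neuron 8-2 stood apart for Pcdhb14 (169.1 CPM, others at most 0.127), Pcdh18 (17.49 CPM, others at most 0.0956), Pcdhb15 (10.54 CPM, others at most 0.0319) and Pcdhgc3 (2.772 CPM, others 0). Neuron 9-1 did so for Pcdha5 (103.1 CPM, others at most 0.0478), Pcdhga5 (52.89 CPM, others 0) and Pcdhgb8 (0.7966 CPM, others 0).

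In type 2, neuron 6-2 stood apart for Pcdhb20 (30.34 CPM), Pcdhb19 (26.9 CPM) and Pcdhgb8 (22.96 CPM), all at 0 in the others. Neuron 10-1 did so for Pcdhga11 (17.9 CPM, others at most 0.0276), Pcdha7 (15.89 CPM, others at most 0.0954) and Pcdh18 (9.229 CPM, others at most 0.0318). Neuron 9-2 did so for Pcdhac2 (103.6 CPM, others 0 to 0.264) and Pcdha11 ENSMUSG00000007440 (47.76 CPM, others at most 0.0552), and neuron 9-4 for Pcdhb10 (23.18 CPM, others at most 0.024).

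Of the other values, that of Pcdh11x also passes by construction, since 1-2 alone of the type 1 neurons held it. The remaining values do not come from a gene held by 1 neuron of a type. Neuron 1-2 was highest of type 1 for Pcdh11x (77.57 CPM, others 0.134 to 1.33) and lowest for Pcdh9 (46.11 CPM, others 355 to 785). Neuron 1-2 is also the type 1 neuron with the highest microglial marker sum (896 CPM), whose part in these values was not tested. In type 2, neuron 6-2 had 7 non-clustered genes detected where each of the others had 4, and neuron 9-4 had the lowest summed non-clustered level (144.2 CPM, others 424.5 to 617.4). These are the type 2 neurons in which 12 of 14 microglial markers were detected.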

How the results depend on the processing

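No paired analysis was possible because the neuron names are not shared between the types. Of 100 alternative values of the summary results, 77 stayed within 1.5 times the value given or within its spread, and 23 moved. Of 280 type differences of single genes, 11 had the other sign, among them 3 of Pcdh10 and 2 of Pcdhga8. The median number of clustered isoforms per neuron, 4, was 6 at 1 CPM and 1 at 50 CPM, and the number of members detected, 30, was 16 at 50 CPM. Among the 30 members, 6 were higher in type 2 and 11 in type 1 by 1 log2 unit or more. A pseudocount of 10 gave 3 and 3, and one of 0.1 gave 11 higher in type 2. With medians over neurons the members' median difference was 0 instead of -0.73, 3 were higher in type 1, and Pcdhac2 was at 0.25. With no filter on low values the median was -0.12, and with a mean of at least 10 CPM it was -1.2 with 3 higher in type 2. Members that share no exon bases on either strand numbered 1 higher in type 2 and 6 in type 1. This setting also leaves out Pcdh7, Pcdh10 and Pcdh19, which overlap genes of the opposite strand. Among the neurons whose names start with 9 the median was 0.86 with 10 higher in type 2, and Pcdh8 (2.13), Pcdh15 (2.31), Pcdh10 (1.21) and Pcdhga1 (-0.07) had the other sign. Among libraries over 20000000 counts the median was -1.42. Among those under, a setting added after seeing the data in which type 2 is neuron 6-2 alone, it was 0.07 with 10 higher in type 2 and 7 in type 1, and Pcdh7 (-0.37), Pcdhga12 (2.01), Pcdh10 (2.03) and Pcdhga8 (-1.96) had the other sign. Leaving out each neuron moved the median between -0.89 (without 4-3) and -0.2 (without 8-2), and the number higher in type 2 between 5 (without 8-2) and 10 (without 10-1, 10-3 or 9-4). Without 6-2, 9-2 and 9-4 it was -0.94, with 6 and 11. The causes were not tested, beyond the fewer neurons or genes in some settings. Pcdh9, Pcdh17, Pcdh11x and Pcdh19 kept the sign of their difference in the 20 alternatives that could move it. Pcdhga7 had 0 counts in all type 1 neurons, so its sign could not turn in any alternative. By depth, levels under 0.306 CPM could not be told from 0 in the shallowest library.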
